A study of Drosophila melanogaster with 4 samples.

Results

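In fly testes with a germline knockdown of Caf40, 24 of 17559 annotated genes were present at a low, matching level in both libraries and were silent or close to silent in both libraries of bam mutant testes. These genes were selected on their measured levels. A gene was taken where its sense-strand count, scaled to 1e+06 sense counts in the library (CPM), came to at least 2 in both Caf40 knockdown libraries, where those values lay within 2-fold of each other, and where neither bam mutant library exceeded 0.5 CPM. Dscam4 and genes with lncRNA symbols were left out by name. The levels that follow therefore describe the selection and carry no test.

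Poly(A) RNA of Drosophila melanogaster testes had been sequenced in 2 libraries per genotype, each from 150 pairs of testes dissected, per the study's methods, with the seminal vesicle. Males of the knockdown were Caf40RNAi(BL67987)/nosGAL4, raised for 3 days at 25 °C before a shift to 29 °C, and their testes were taken at an age of 0 to 2 days. The nanos driver acts in the stem cells of the germ line and the first spermatogonia, and UAS-Dicer2 was present in the driver strains as the methods describe them. The control males were bam1/bam86 (bam1/bamΔ86 in the study's spelling) without a heat shock promoter, and the methods list the balancer CyO for them. They were kept at 22 °C until mid or late pupal stages, heat shocked at 37 °C for 30 min, returned to 25 °C and dissected 48 h after the shock. Genotype, strain, rearing temperature and heat shock separated the libraries in the same way and cannot be told apart. No label names separate cultures for the 2 libraries of a genotype, so a p-value measures only the spread between these samples.

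The knockdown libraries held 30411385 and 26984758 sense counts and the bam mutant libraries 118209171 and 95125694, so that depth followed genotype too. A count of 3, the most that an observed 0 allows at 95% confidence, was worth 0.0986 and 0.111 CPM in the knockdown and 0.0254 and 0.0315 CPM in the bam mutant. Such limits cover counting error only. Rcd-1, the annotated symbol of Caf40, had 13.3 and 17.4 CPM in the knockdown against 195 and 203 CPM in the bam mutant, so the targeted gene was low in the libraries labelled as its knockdown. A list of 13 germline genes had a median of 239 and 219 CPM in the knockdown and of 114 and 122 CPM in the bam mutant, so germline transcripts were present in all 4 libraries.

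As background, Bam is the protein that ends the proliferation of male germ cells and starts their differentiation, and Caf40 is the subunit of the CCR4-NOT complex that Bam binds. CCR4-NOT shortens the poly(A) tails of messenger RNAs, a step that often precedes their decay. Testes lacking either function fill with spermatogonia that keep dividing and the somatic cells that enclose them. The genes described here are not a known pathway. Most carry only a CG number, and those with a described product range from a phosphatase and a proton pump subunit to an actin of flight muscle.

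Of all genes, 8282 were at or under 0.5 CPM in both bam mutant libraries, 7897 were at or over 2 CPM in both knockdown libraries, and only 32 met both limits. In 5 of the 32 the knockdown values were more than 2-fold apart, and 3 of the other 27 were left out by name. The 24 that remained were 0.137% of all genes. With the genotypes exchanged the same limits gave 32 genes, after lncRNA symbols but not Dscam4 were left out by name. Leaving out a library removes limits from the rule, so the number could then only stay or rise. With 1 knockdown library the 2-fold limit did not apply either. Without Caf40KD replicate 1 the rule gave 301 genes, and without Caf40KD replicate 2 it gave 95. Leaving out a bam mutant library gave 27 or 35 genes.

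All 23 members found in the annotation were protein coding. The 24th, FBgn0264255, had neither symbol nor coordinates in the annotation and is given by its identifier. Across the members the mean level in the knockdown ran from 2.09 to 10.7 CPM with a median of 3.03 CPM, and the mean level in the bam mutant from 0 to 0.497 CPM with a median of 0.272 CPM. By library, the median member had 3.24 and 3.17 CPM in the knockdown and 0.233 and 0.279 CPM in the bam mutant. In counts these medians were 98.5 and 85.5 in the knockdown and 27.5 and 26.5 in the bam mutant. The members together made up 103 and 99.6 CPM of the knockdown libraries and 5.83 and 6.62 CPM of the bam mutant libraries. They were thus scarce transcripts in either tissue. Among the 14002 genes detected in the knockdown, ranked by CPM from the highest down, the members held ranks 6547 to 8207.

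**Figure D1:**
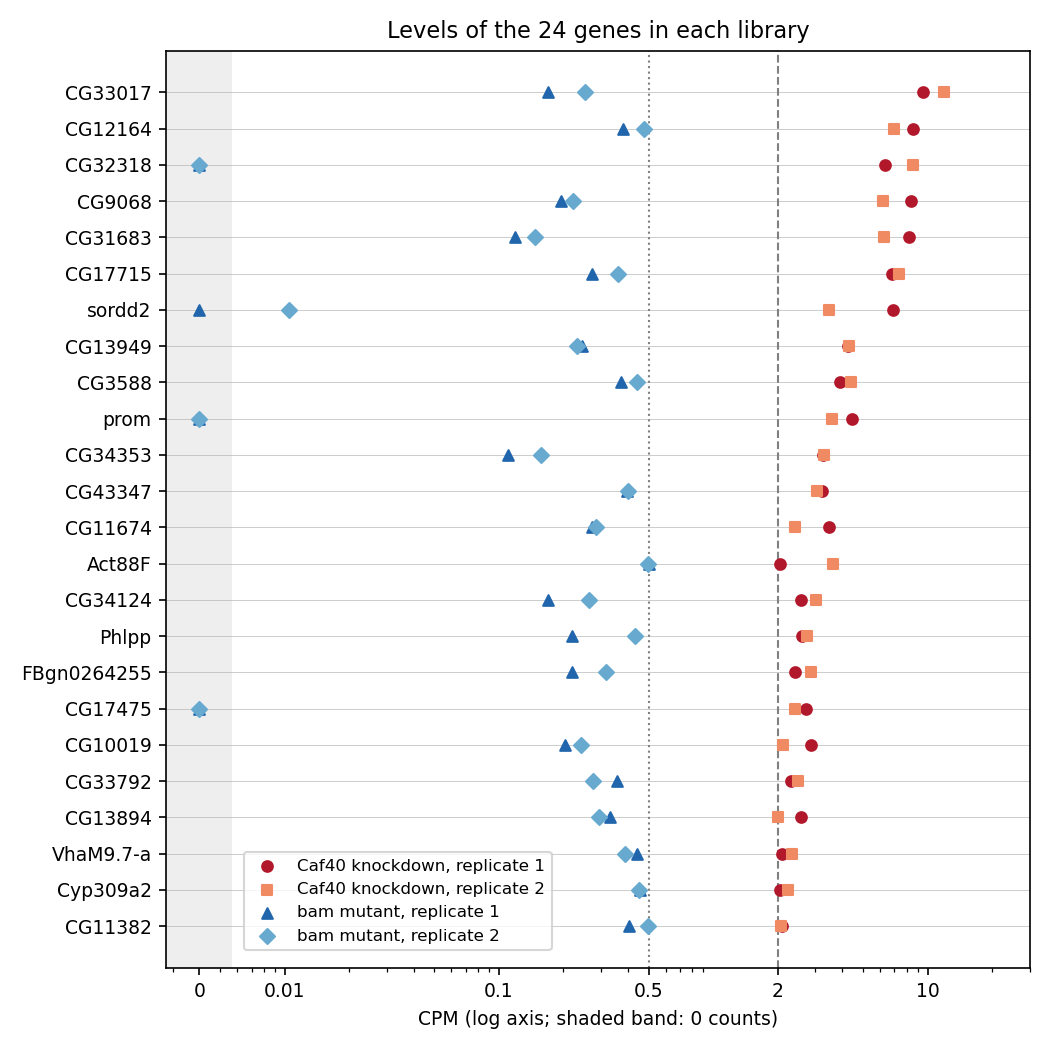
Level of each of the 24 genes in CPM (log axis) in the 2 Caf40 knockdown libraries (red circles and orange squares) and the 2 bam mutant libraries (blue triangles and diamonds), ordered by mean knockdown level, with the limits of 2 CPM (dashed) and 0.5 CPM (dotted) that chose the genes. The knockdown points run between 2.00 and 11.9 CPM, and CG32318, prom and CG17475 lie in the shaded band of 0 counts in both bam mutant libraries.

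The clearest on-off pattern belonged to 4 genes with no more than 1 count in the 2 bam mutant libraries together. CG32318, on chromosome arm 3L at 1246073 to 1246923 on the minus strand, had 6.31 and 8.52 CPM (192 and 230 counts) in the knockdown and 0 counts in both bam mutant libraries. Over the pooled libraries it was at least 523-fold higher in the knockdown, taking 3 counts over both bam mutant libraries as the floor. Read pairs that match several places are not counted for any gene, and whether CG32318 shares sequence with the adjacent Klp61F was not checked, so its 0 counts and its fold hold only for pairs that map to 1 place. Per kilobase of exon it was the most abundant of the members, at 9.45 CPM per kb in the knockdown.

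Prominin, encoded by prom, is a membrane protein with a role in the photoreceptors of the eye. The gene lies on 2R at 24415410 to 24428387 on the minus strand, with 19 exon blocks, more than any other member. It had 4.44 and 3.59 CPM (135 and 97 counts) in the knockdown and 0 counts in both bam mutant libraries, at least a 287-fold difference in counted pairs. CG17475, a gene of 1 exon block on 3R at 17129339 to 17130426, had 2.70 and 2.41 CPM (82 and 65 counts) in the knockdown and likewise 0 counts in the bam mutant, at least 182-fold. Sordd2, on X at 15796908 to 15799162, had 6.87 and 3.48 CPM in the knockdown against 0 and 0.0105 CPM in the bam mutant, where it had 0 counts in replicate 1 and 1 count in replicate 2. Its pooled ratio was 1126, with a 95% counting interval from 201 to 44628. That interval covers counting error only, not the spread between libraries, and the rule had selected these counts. Sordd2 also had the least similar knockdown values of the group, 1.97-fold apart, just inside the limit.

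The other 20 members were measurable in the bam mutant as well, with 13 or more counts in each of its libraries. Most of the group was therefore not silent in the bam mutant but present there at a low level that its deep libraries resolved. Over the 21 members with any bam mutant count, the ratio of the mean levels ran from 4.64 to 985 with a median of 10.6, and 12 members exceeded 10-fold. The lower bound of that range follows from the limits of the rule.

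CG33017 had the highest CPM of the group, with 9.50 and 11.9 CPM in the knockdown against 0.169 and 0.252 CPM in the bam mutant, a 50.8-fold difference of the means. CG9068, its near neighbour on 2R, had 8.35 and 6.19 CPM in the knockdown against 0.195 and 0.221 CPM in the bam mutant, or 35.0-fold. CG31683, on 2L at 20447734 to 20449964, had 8.19 and 6.26 CPM in the knockdown against 0.118 and 0.147 CPM in the bam mutant, or 54.4-fold. These 3 genes had the largest ratios among members with at least 10 counts in every library. CG12164, on 2R at 7311395 to 7313495, had 8.55 and 6.97 CPM in the knockdown but stood close under the bam mutant limit at 0.381 and 0.473 CPM, and its ratio was 18.2. CG17715, on 2L at 22844220 to 22854541 and annotated with 8 transcripts, had 6.81 and 7.34 CPM in the knockdown against 0.271 and 0.357 CPM in the bam mutant, or 22.5-fold. With CG32318 and sordd2 these were the 7 members with a knockdown mean of 5 CPM or more.

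The other members with a described product sat at the lower end of the group. Phlpp encodes a protein phosphatase that acts on the kinase Akt, and lies on 2L at 19059129 to 19063132. It had 2.60 and 2.74 CPM in the knockdown against 0.220 and 0.431 CPM in the bam mutant, an 8.20-fold difference of the means. VhaM9.7-a encodes a small membrane subunit of the vacuolar ATPase, the pump that acidifies organelles, and lies on 3L at 4262705 to 4263464. Its levels were 2.10 and 2.33 CPM in the knockdown against 0.440 and 0.389 CPM in the bam mutant, or 5.36-fold. In both genes the 2 genotypes were far apart relative to the spread between libraries, as the choice of members required.

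Act88F encodes the actin of the indirect flight muscles and lies on 3R at 15439969 to 15442177. It had 2.04 and 3.63 CPM in the knockdown against 0.499 and 0.494 CPM in the bam mutant, close to both limits at once, and its knockdown values were 1.78-fold apart. A list of 9 muscle genes did not hold Act88F. It summed to 1035 and 1285 CPM in the knockdown and to 1756 and 1965 CPM in the bam mutant. That was the opposite direction to Act88F, whose direction the rule had set. All 9, like Act88F, were higher in the second knockdown library. The part of muscle tissue in the Act88F value was not tested. Cyp309a2 encodes a cytochrome P450, a family of oxidising enzymes, and lies on 2L at 2564886 to 2573037. It had 2.04 and 2.22 CPM in the knockdown against 0.457 and 0.452 CPM in the bam mutant, or 4.69-fold, near the lowest ratio that the rule admits.

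The rest carried CG numbers or no name. CG13949 on 2L, at 855337 to 856639, had nearly the same value in both knockdown libraries, 4.24 and 4.30 CPM, against 0.245 and 0.231 CPM in the bam mutant. CG3588 on X, at 2919770 to 2924426, had 3.91 and 4.41 CPM in the knockdown against 0.372 and 0.442 CPM in the bam mutant. CG34353 on 3R, which spans 138 kb from 27767966 to 27905843, had 3.26 and 3.30 CPM in the knockdown against 0.110 and 0.158 CPM in the bam mutant. CG13949 and CG34353 had the closest knockdown values of the group, each 1.01-fold apart.

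CG43347, on X at 10602641 to 10620190, had the longest exonic sequence of the members, 9931 bases. Its 3.22 and 3.04 CPM in the knockdown against 0.398 and 0.399 CPM in the bam mutant were the thinnest coverage of the group per length, 0.315 CPM per kb in the knockdown. CG11674, on X at 14224647 to 14225879, had 3.45 and 2.41 CPM in the knockdown against 0.271 and 0.284 CPM in the bam mutant. CG34124, on 2L at 4958411 to 4965430, had 2.56 and 3.00 CPM in the knockdown against 0.169 and 0.263 CPM in the bam mutant. All of them exceeded the bam mutant 7.86-fold to 12.9-fold in the means.

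The unnamed FBgn0264255 had 2.40 and 2.85 CPM in the knockdown against 0.220 and 0.315 CPM in the bam mutant, or 9.81-fold. CG10019, on 2L at 3730466 to 3754617, had 2.86 and 2.11 CPM in the knockdown against 0.203 and 0.242 CPM in the bam mutant, and CG33792, the shortest member at 678 exonic bases, on 2R at 12632674 to 12633454, had 2.30 and 2.48 CPM in the knockdown against 0.355 and 0.273 CPM in the bam mutant. CG13894, on 3L at 693083 to 699144, had 2.56 and 2.00 CPM in the knockdown against 0.330 and 0.294 CPM in the bam mutant. CG11382, on X at 1209970 to 1211853, had the lowest level and the lowest ratio of the group, with 2.10 and 2.08 CPM in the knockdown against 0.406 and 0.494 CPM in the bam mutant, or 4.64-fold. With these, 12 of the 24 members had a knockdown mean under 3 CPM.

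The limits cut through a continuous range of levels. Just inside the knockdown limit stood CG13894, Act88F and Cyp309a2, and just outside it stood Phae1 with 1.97 and 2.41 CPM in the knockdown, Ir51a with 1.87 and 2.26 CPM and gogo with 2.07 and 1.85 CPM. Phae1 had only 0.0254 and 0.0526 CPM in the bam mutant, so it missed the group for want of a single count in 1 knockdown library. At the bam mutant limit Act88F, CG11382 and CG12164 were just inside. Just outside stood CG10654, with 10.4 and 11.5 CPM in the knockdown against 0.499 and 0.505 CPM in the bam mutant. CG12520 and asRNA:CR45108 were the next, both at 0.508 CPM in bam mutant replicate 1.

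Scaling moved the same edge. With library sizes adjusted for composition (the trimmed mean of M-values, or TMM) 19 of the 24 remained, and Act88F, CG10019, CG11382, CG13894 and sordd2 dropped out. With unstranded counts Act88F, CG11382 and CG34124 dropped out and 7 genes entered, CG10654 and Phae1 among them. Act88F left the group under each of these settings, after the reads of the bam mutant were thinned to the depth of the knockdown, and with the knockdown values held within 1.5-fold.

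Agreement between the knockdown libraries was part of the rule. The higher knockdown value exceeded the lower by 1.01-fold to 1.97-fold over the members, with a median of 1.18-fold, and 13 of the 24 agreed within 1.2-fold. Knockdown replicate 1 was the higher in 11 members and replicate 2 in 13. Another 343 genes at or under 0.5 CPM in both bam mutant libraries passed 2 CPM in 1 knockdown library only, 275 of them in replicate 2 and 68 in replicate 1. These missed the level limit, and some, such as Phae1, Ir51a and gogo, agreed within 2-fold. How many of them agreed was not counted. The 5 genes that met both level limits but not the agreement limit were wam, at 2.56 and 5.93 CPM in the knockdown, and CG9029, Mst57Db, msopa and BG642163, which were 6.73-fold to 8.62-fold higher in knockdown replicate 1.

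Marker genes of other cell types also differed between the knockdown libraries. All 17 genes of an accessory gland list were higher in knockdown replicate 1, where they summed to 538 CPM, than in replicate 2, where they summed to 67.2 CPM, against 11.7 and 3.76 CPM in the bam mutant. All 18 genes of a spermatid list were higher in knockdown replicate 2, and summed to 7.10 and 212 CPM in the knockdown against 14.6 and 17.8 CPM in the bam mutant. The level limits kept all genes of these lists but Mst57Db out of the group, and the agreement limit kept out Mst57Db. None of the 208 entries found from 16 marker lists was a member, where a gene on more than 1 list counts in each. The lists covered germline, somatic, muscle, gland, fat body, gut, neuron, immune and other genes. Members were only 0.137% of all genes, so nothing is read from their absence from these lists. Mst57Db of the accessory gland list was the only listed gene to meet both level limits. Fewer cells of a type and less RNA per cell cannot be told apart in such whole-tissue libraries.

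**Figure D2:**
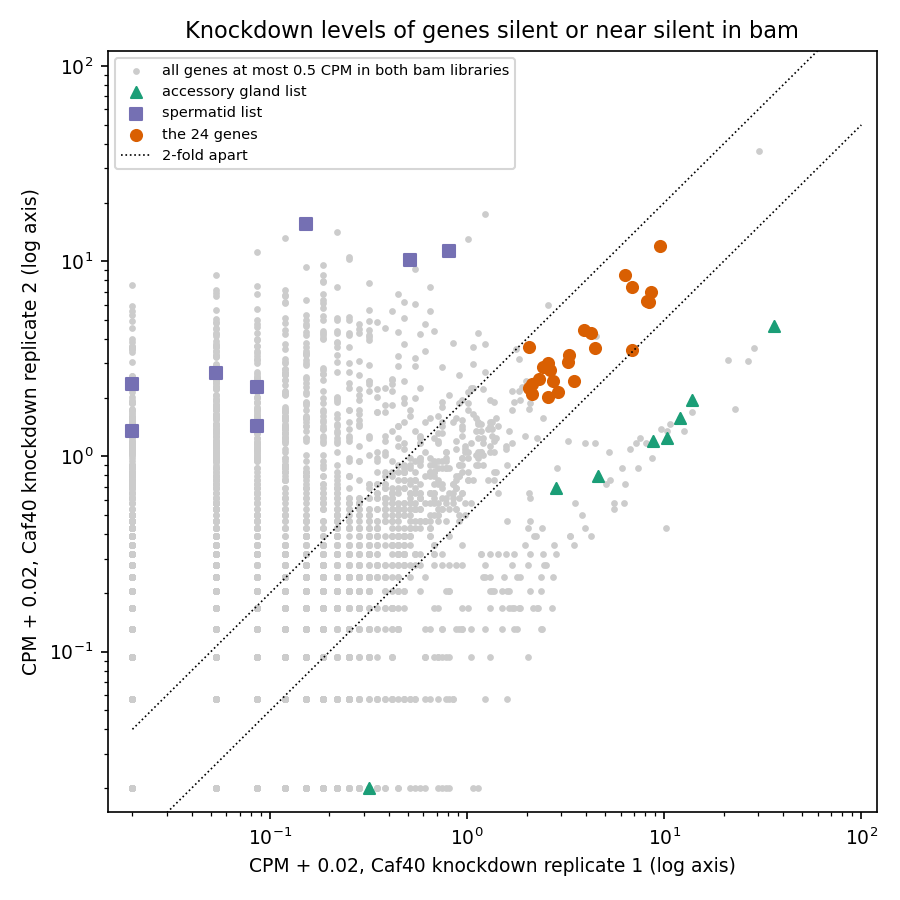
Level in knockdown replicate 2 against that in knockdown replicate 1 (CPM + 0.02, log axes) for the 8282 genes at or under 0.5 CPM in both bam mutant libraries, with the 24 genes (orange circles), spermatid genes (purple squares) and accessory gland genes (green triangles) marked and dotted lines at 2-fold. The 24 genes lie between the lines by their selection, spermatid genes lie above them and accessory gland genes below; unmarked points between the lines at 2 CPM or more are the 3 genes left out by name.

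The members were spread over the major chromosome arms. Of the 23 with coordinates, 7 lay on 2L, 5 on 2R, 5 on X, 3 on 3L and 3 on 3R, and 0 on chromosome 4 or Y. The share on 2L was 30.4% against 19.0% of all protein-coding genes, and that on 3R was 13.0% against 24.6%. The median member had 2031 bases of exon and 4 exon blocks, against 1725 bases and 3 blocks over all protein-coding genes. A CG number served as the symbol of 17 of the 24, or 70.8%, against 43.9% of protein-coding genes. These shares are a description of 23 or 24 genes and were not tested.

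A single pair of members lay within 10 kb of each other. CG33017, at 16272114 to 16277655, and CG9068, at 16283435 to 16287450, both on the plus strand of 2R, were 5.78 kb apart. The genes nearest to CG33017 had other levels. Khc, which encodes the kinesin heavy chain and lies 142 bases before CG33017, had 265 and 267 CPM in the knockdown against 240 and 241 CPM in the bam mutant, and cato, 29 bases beyond CG33017, stayed at or under 0.0371 CPM in every library. Beside CG9068, CG7755 and CG30324 were high in 1 knockdown library. CG7755 is described further on, and CG30324, 135 bases away, had 0.132 and 4.97 CPM in the knockdown against 0.178 and 0.294 CPM in the bam mutant. The next closest members, CG13894 and CG32318 on 3L, were 547 kb apart.

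Reads from beyond the end of a gene can be counted in the next gene on its strand, so the nearest gene upstream on the same strand was listed for each member. In 6 of 23 members, or 26.1%, it ended within 1000 bases, against 30.2% of protein-coding genes. Psf1, whose product is part of the GINS replication complex, ended 62 bases before CG32318 and had 22.8 and 25.3 CPM in the knockdown against 12.8 and 11.9 CPM in the bam mutant, where CG32318 had no counts. Marcal1 ended 118 bases before CG34124 with 21.5 and 20.8 CPM in the knockdown against 16.6 and 16.2 CPM in the bam mutant. CG10492 ended 307 bases before Phlpp with 164 and 180 CPM in the knockdown against 108 and 118 CPM in the bam mutant. In all 3 pairs the upstream gene was well expressed in both genotypes. The member was at or under 0.431 CPM in the bam mutant, where the rule held it low, so nothing is read from that contrast.

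Kraken, 797 bases before CG13949, was likewise at 78.8 and 84.2 CPM in the knockdown against 57.1 and 60.4 CPM in the bam mutant. CG4053, 784 bases before CG17475, had 0 counts in the knockdown and at most 1 count in a bam mutant library. Rad1, 398 bases before Cyp309a2, had 0 counts in every library and shared its distance with Sws1, also at 0. Reads that lie on overlapping genes of the same strand are not assigned to either in this kind of counting, so these zeros need not mean silence. The part of transcription from upstream in any member was not tested.

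Overlapping annotation touched 8 members. On the same strand CG3588 lay with its full 4657 bases inside the span of kirre, which had 11.2 and 12.4 CPM in the knockdown against 11.0 and 12.8 CPM in the bam mutant. CG43347 shared 74 bases with CG1628, which was at 4.31 and 5.30 CPM in the knockdown against 5.52 and 5.96 CPM in the bam mutant. Prom shared 1177 bases with CG42383, and that gene was high in 1 knockdown library only, at 0.132 and 4.74 CPM in the knockdown against 0.0338 and 0.105 CPM in the bam mutant. CG34353 overlapped CG12426 by 890 bases, with CG12426 at or under 0.259 CPM in every library. On the opposite strand 5 members had an overlapping gene.

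Reads on the opposite strand were few at most members. In 18 of the 24 no library had as many as 5 opposite-strand counts. Summed over the members the opposite strand held 4.32% and 4.38% of the stranded counts in the knockdown and 29.8% and 28.6% in the bam mutant, against 2.47% to 2.54% over all genes of a library. The rule capped the sense counts in the bam mutant and left the opposite strand free, so these shares are not compared between the genotypes. The summed opposite-strand counts were 142 and 123 in the knockdown and 293 and 252 in the deeper bam mutant libraries.

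A pair of genes held most of these reads. CG11674 had 57 and 41 opposite-strand counts in the knockdown and 112 and 83 in the bam mutant, and it overlaps Prp16, a splicing factor gene on the other strand, by 86 bases. CG34124 had 42 and 32 in the knockdown and 91 and 90 in the bam mutant, and an antisense RNA gene, asRNA:CR43824, overlaps 1450 of its bases. Their sense counts, which the rule had set, were 105 and 65 in the knockdown and 32 and 27 in the bam mutant for CG11674, and 78 and 81 in the knockdown and 20 and 25 in the bam mutant for CG34124.

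At prom the opposite strand had 18 and 16 counts in the knockdown and 27 and 29 in the bam mutant. The bam mutant libraries thus held reads over the locus, but none were counted for prom in the sense direction. Sense reads lying on both prom and CG42383 are counted for neither. FBgn0264255 had 12 and 8 opposite-strand counts in the knockdown and 33 and 16 in the bam mutant, and CG11382 had 6 and 11 in the knockdown and 15 and 21 in the bam mutant. Scaled to the sense total of each library, the opposite strand of prom stood at 0.592 and 0.593 in the knockdown against 0.228 and 0.305 in the bam mutant. The sense counts of prom had been selected by the rule and its opposite-strand counts had not, so the strands are not compared.

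**Figure D3:**
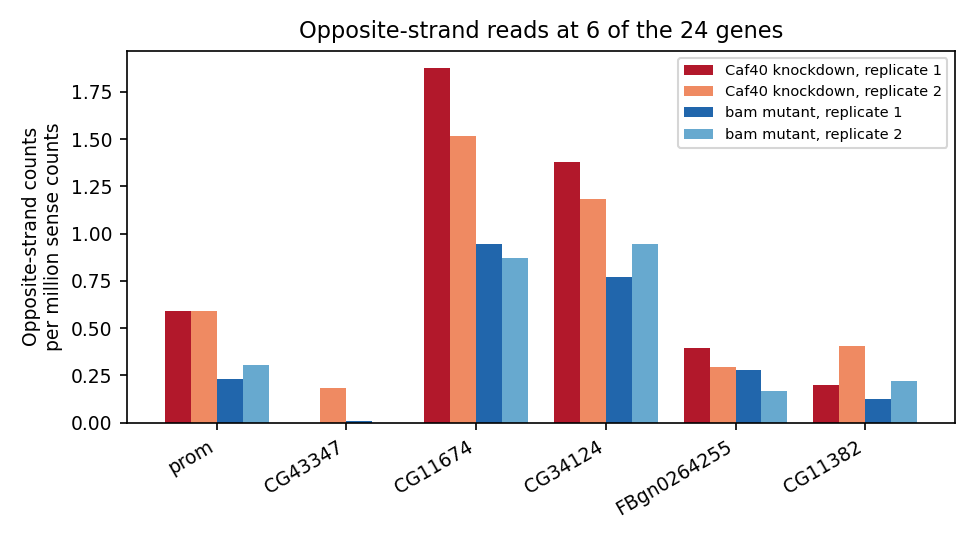
Opposite-strand CPM, scaled to the sense total of each library, at the 6 members with 5 or more opposite-strand counts in a library, for the 2 Caf40 knockdown (red, orange) and 2 bam mutant (dark and light blue) libraries. CG11674 and CG34124 are highest, at 1.87 and 1.38 in knockdown replicate 1. Prom has opposite-strand reads in all 4 libraries though no sense reads were counted for it in the bam mutant.

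A test across all genes, which the choice of members did not limit to them, gave the background. In the quasi-likelihood test of edgeR, after Benjamini-Hochberg adjustment and at a threshold of 0.05, 6912 of 10854 genes tested differed between the genotypes, or 63.7%. Of the tested genes 30.7% were higher in the knockdown and 33.0% lower, or 3329 and 3583 genes. Under upper quartile scaling the balance turned, with 4272 higher and 3174 lower. Without bam replicate 1 there were 2057 higher and 3068 lower, and without bam replicate 2 there were 1915 higher and 3089 lower. All 24 members passed the filter on low counts and all were called higher, but the same contrast had chosen them, and nothing is read from that count. Without bam replicate 1 the count was 21, and without bam replicate 2 it was 20.

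Genes beside the members were not chosen by the rule and were examined to see whether a member's difference extended along the chromosome. The nearest 2 genes on either side of the 23 members came to 92 genes. Of these 42 were at or under 0.5 CPM in both bam mutant libraries, beside 8282 of all 17559 genes. No counts at all were found for 11, beside 2413 of all genes. Both shares were close to those over all genes. Of 59 neighbours that could be tested, 35 were called by edgeR, or 59.3%, against the background of 63.7%. More of them rose than fell, 23 (39.0%) against 12 (20.3%), beside 30.7% and 33.0% over all genes. Without bam replicate 2 there were 14 higher and 11 lower. Their median log2 fold change was 0.31 against 0.03 over all genes, with a range from -2.84 to 4.41. A gene called higher stood beside 16 of the members and a gene called lower beside 10. The matching share over all genes was not computed, so nothing is read from these counts.

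The share called was no larger close to the members. Within 1000 bases 13 of 26 tested neighbours were called, and farther away 22 of 33. On the strand of the member 20 of 33 were called, and on the other strand 15 of 26. Neighbours called with a log2 fold change over 2 numbered 7, or 11.9% of those tested, against 4.36% of all tested genes, and they stood beside 6 members. Neighbours called under -2 numbered 3, or 5.08% of those tested, against 7.08% of all tested genes, and were Ets98B beside CG34353, CG3526 beside CG3588 and CG17760 beside CG33792.

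The most changed neighbour was CR44383, a pseudogene 10 bases from sordd2 on the other strand. It had 1.15 and 1.04 CPM in the knockdown against 0.0508 and 0.0420 CPM in the bam mutant, a log2 fold change of 4.41 ± 0.51 (SE, n = 2 each; edgeR, Benjamini-Hochberg adjusted p = 9.79e-04). It stood higher in the knockdown, the direction that the rule had set for the member beside it. It was named for having the largest change among the 59 tested neighbours. Without bam replicate 2 the edgeR adjusted p was 0.0518.

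CG7755, 488 bases from CG9068, had 0.427 and 6.74 CPM in the knockdown against 0.178 and 0.189 CPM in the bam mutant. Nearly all of the difference came from knockdown replicate 2. Its log2 fold change was 4.13 ± 1.22 (SE, n = 2 each; edgeR, Benjamini-Hochberg adjusted p = 0.0303), and over 11 alternatives the value fell as low as 1.19 and the adjusted p reached 0.198. The call was lost with the replicate number as a block and without Caf40KD replicate 2, bam replicate 1 or bam replicate 2.

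Beside Act88F the next 2 genes downstream, on the same strand, were also higher in the knockdown, although they lay 39.7 and 41.0 kb away. B9d1 encodes a component of the ciliary transition zone. It had 16.7 and 16.6 CPM in the knockdown against 1.46 and 1.44 CPM in the bam mutant, a log2 fold change of 3.43 ± 0.15 (SE, n = 2 each; edgeR, Benjamini-Hochberg adjusted p = 5.26e-05), which held under all 11 alternatives. Rh6, a rhodopsin gene of the eye, had 0.888 and 0.889 CPM in the knockdown against 0.0846 and 0.0736 CPM in the bam mutant. Its log2 fold change was 3.37 ± 0.49 (SE, n = 2 each; edgeR, Benjamini-Hochberg adjusted p = 0.00235), and it was not called when either bam mutant library was left out, with adjusted p up to 0.109. Both genes agreed between the knockdown libraries more closely than Act88F did.

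Jon25Bi, a gene 3266 bases from CG34124, had 0.263 and 0.222 CPM in the knockdown against 0.00846 and 0.0210 CPM in the bam mutant. These values rested on few reads, and the log2 fold change of 3.84 ± 0.94 (SE, n = 2 each; edgeR, Benjamini-Hochberg adjusted p = 0.0159) was called in the 6 alternatives in which the gene could be tested. At CG32318 the neighbours differed far less than the member, whose difference the rule had selected, so nothing is read from that contrast. Klp61F, a mitotic kinesin gene 162 bases away, had 144 and 149 CPM in the knockdown against 106 and 106 CPM in the bam mutant, a log2 fold change of 0.38 ± 0.05 (SE, n = 2 each; edgeR, Benjamini-Hochberg adjusted p = 0.00215). Around CG17475 the 4 nearest genes had no count in 1 knockdown library or more and were too low to test, so its 82 and 65 knockdown counts stood in an otherwise silent stretch.

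**Figure D4:**
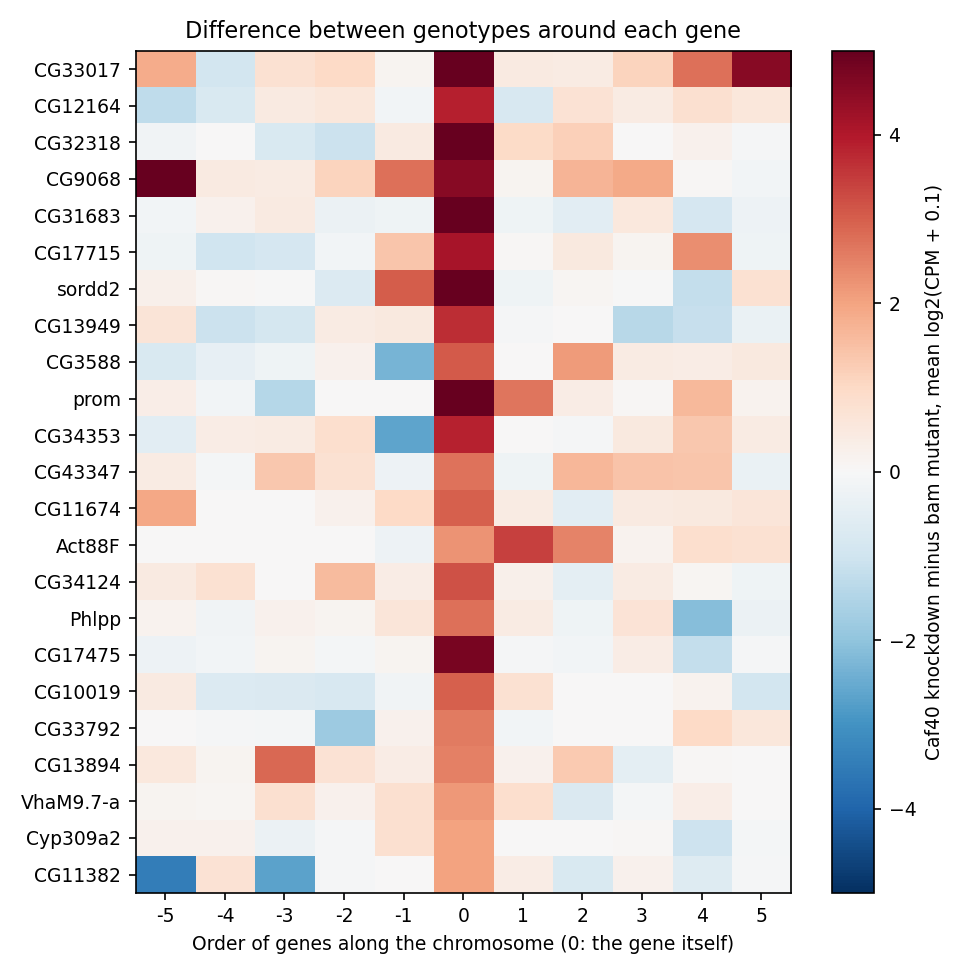
Difference between Caf40 knockdown and bam mutant in mean log2(CPM + 0.1) for each of the 23 members with coordinates (column 0) and for 5 genes on either side in chromosome order. The middle column is positive by selection, most flanking cells are pale, and darker cells appear in single places such as beside Act88F, sordd2 and CG9068, which also appears 5 genes after CG33017.

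Some members belong to gene families with other members in the testis, matched here by the letters of the symbol. For sordd2, Act88F and VhaM9.7-a there were 9 such relatives, of which 8 could be tested and 7 were called by edgeR, against the background of 63.7%. Of the 7 called, 6 were lower in the knockdown and 1 was higher, with a median log2 fold change of -0.61 over the 8. That was 75% and 12.5% of the tested relatives, beside 33.0% and 30.7% of all tested genes. Most of the relatives were actins matched to Act88F alone, so these counts largely describe 1 family.

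VhaM9.7-b, another gene for this subunit of the vacuolar ATPase, had 59.4 and 63.3 CPM in the knockdown against 153 and 161 CPM in the bam mutant, where VhaM9.7-a was at 2.10 and 2.33 CPM against 0.440 and 0.389 CPM. Its log2 fold change was -1.44 ± 0.05 (SE, n = 2 each; edgeR, Benjamini-Hochberg adjusted p = 3.49e-05). VhaM9.7-c had 15.9 and 16.0 CPM in the knockdown against 16.3 and 14.9 CPM in the bam mutant and was not called (edgeR, Benjamini-Hochberg adjusted p = 0.652). VhaM9.7-d, at or under 0.667 CPM, was too low to test. VhaM9.7-b was thus lower in the knockdown. The rule had set VhaM9.7-a to be higher there, so nothing is read from their opposite directions.

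Sordd1 lies 879 bases from sordd2 on the same strand and was expressed in both genotypes, with 37.0 and 40.3 CPM in the knockdown against 63.7 and 62.1 CPM in the bam mutant, a log2 fold change of -0.79 ± 0.06 (SE, n = 2 each; edgeR, Benjamini-Hochberg adjusted p = 2.42e-04). Sordd1 was thus lower in the knockdown. The direction of sordd2 had been set by the rule, so nothing is read from the contrast within the pair. Of the actins, Act5C and Act42A, the general cytoplasmic forms, were at 2427 and 2439 CPM and at 1292 and 1255 CPM in the knockdown against 3282 and 3220 CPM and 1756 and 1774 CPM in the bam mutant. Act57B had 151 and 198 CPM in the knockdown against 274 and 322 CPM in the bam mutant, with a log2 fold change of -0.87 ± 0.12 (SE, n = 2 each; edgeR, Benjamini-Hochberg adjusted p = 0.00166). Act87E had 46.6 and 74.3 CPM in the knockdown against 83.3 and 95.5 CPM in the bam mutant, and its call (edgeR, Benjamini-Hochberg adjusted p = 0.0215) was lost under upper quartile scaling and when either bam mutant library was left out, with values up to 0.140.

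Act79B, the actin of tubular muscle, was the only relative called higher in the knockdown. It had 0.986 and 13.0 CPM in the knockdown against 0.186 and 0.200 CPM in the bam mutant, a log2 fold change of 5.03 ± 1.21 (SE, n = 2 each; edgeR, Benjamini-Hochberg adjusted p = 0.0150), which was not called when either bam mutant library was left out, with values up to 0.132. Without Caf40KD replicate 2 the log2 fold change was 2.32. In both Act79B and Act88F knockdown replicate 2 was the higher, far more so in Act79B.

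**Figure D5:**
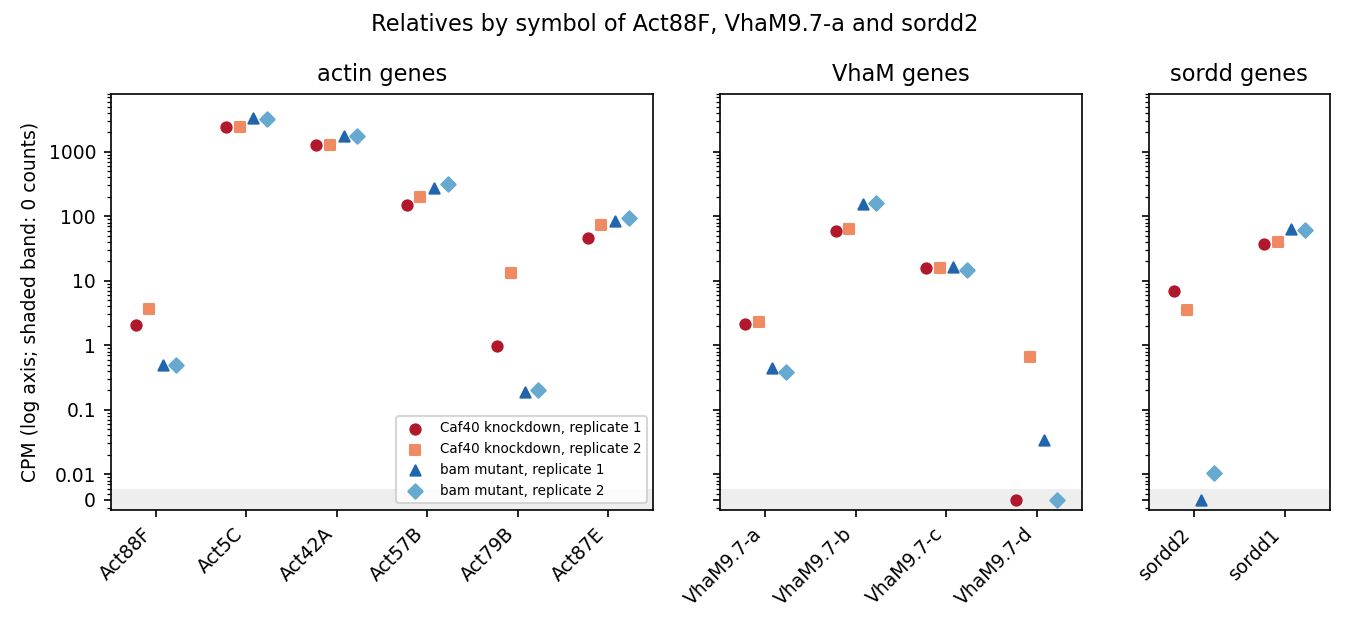
Level in CPM (log axis; shaded band for 0 counts) of Act88F, VhaM9.7-a and sordd2 and of the genes that share the letters of their symbols, in the 2 Caf40 knockdown libraries (red circles, orange squares) and the 2 bam mutant libraries (blue triangles, diamonds). The 3 members lie higher in the knockdown by selection, Act79B has 0.986 and 13.0 CPM there, and VhaM9.7-b, sordd1 and Act57B lie lower in the knockdown than in the bam mutant.

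Cyp309a1, which lies 55 bases from Cyp309a2 on the same strand and encodes another cytochrome P450, had 0.559 and 0.593 CPM in the knockdown against 0.211 and 0.378 CPM in the bam mutant and was not called (edgeR, Benjamini-Hochberg adjusted p = 0.175). The P450 family as a whole was too large by symbol to be treated as relatives and was not analysed here.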

How the data were processed

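Per the labels, the authors used poly(A) selection and the strand-specific NEBNext Ultra II Directional kit, trimmed reads with Trim Galore, aligned them to dm6 with STAR and deposited raw read-pair counts per gene. Versions of these tools are not given in the sources used here. The deposited counts hold an unstranded, an opposite-strand and a sense-strand value per gene, and the sense-strand value was used. The 4 summary entries that name no gene took 26.9% to 30.8% of the read pairs and were left out of totals and tests. Pairs that map to several places are not counted per gene, so near-identical copies may lose reads. A deposited table of normalised values with 4 per-sample columns was not used, because some column names did not match the labels, and neither was a deposited DESeq2 comparison, which holds fold changes and p-values.

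Symbols came from the reference name table (17252 of 17559 identifiers), and coordinates from Ensembl release 115 (BDGP6.54, which keeps the coordinates of dm6). CPM is the sense count over the sense total of the library, times 1e+06. All 24 members are given with their values, the 3 genes on either side of each limit are named (all 5 beyond the agreement limit), and so are the 5 called neighbours and the 5 called relatives with the largest absolute log2 fold change. Khc, cato, CG30324, Klp61F, Psf1, Cyp309a1, the remaining relatives, neighbours under -2 and overlapping genes were named after their values were seen. The members and all lists were chosen with earlier results of these data known.

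Tests between genotypes used edgeR 4.0.16 in R 4.3.3 (filterByExpr, TMM, glmQLFit, glmQLFTest; two-sided, with no term but genotype) on all genes, with Benjamini-Hochberg adjustment and a threshold of 0.05, and were tested on simulated data. Alternatives were DESeq2 1.42.0, other scalings and filters, unstranded counts, thinning of the bam mutant reads to the depth of the knockdown, a replicate block, leaving out each library, and other limits for the rule. Relatives were genes that share the letters of the symbol before the first digit, where no more than 60 genes did. No sequence was read here, so promoter motifs and protein comparisons were not made.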

Additional observations from a re-analysis of the deposited data

How the results depend on the processing

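The number of genes that met the rule was 24. It was 70 with a knockdown limit of 1 CPM, 6 with a limit of 5 CPM, 9 with a bam mutant limit of 0.25 CPM and 59 with a limit of 1 CPM. Leaving out 1 library, which removes limits and cannot lower the number, gave 27 to 301 genes. It was 19 with TMM, 28 with unstranded counts, 23 with thinned bam mutant libraries, 29 without the agreement limit and 22 with agreement within 1.5-fold. The count of genes called by edgeR (6912) was 5004 to 8275 over its alternatives, that of neighbours (35) was 25 to 42 and that of relatives (7) was 5 to 8. Upper quartile scaling moved the median log2 fold change over the tested genes to 0.18, against 0.03.

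No label ties libraries of the same number together. Over 10854 genes the deviations of same-numbered libraries correlated at 0.26, and with only 2 pairs it stayed undecided whether the numbers pair them. With the replicate block 6792 genes, 34 neighbours and 7 relatives were called, and CG7755 was not. For the 10 named neighbours and relatives, 93 alternative values kept the call and 12 lost it. The causes were not tested. Each genotype had 2 libraries, and the knockdown libraries were 3.72 times shallower, where 1 count was worth 0.0329 and 0.0371 CPM. A level of 2 CPM there rested on as few as 54 counts, so genes near the limits can change sides by counting error alone.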
